A study of Mus musculus with 12 samples.

Results

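The cell cycle genes described here are 50 genes of DNA replication, entry into S phase, mitosis and cell cycle inhibition, followed in prostate tumours of mice with and without p62. A gene was measured where a probe set of the array carried its symbol and no other, and where several did, the one with the highest mean level was used. By that rule 48 of the 50 genes were measured, out of 19937 genes with such a probe set. They were 15 replication genes, 8 regulators of entry into S phase, 24 mitotic genes and the inhibitor Cdkn1b. Ccnb1 had no probe set under its symbol and Cdkn1a shared its probe set with another gene, so that both are without a value here.

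Cells of TRAMP-C2Re3, a prostate carcinoma line of the mouse, were placed in the prostates of C57BL6 mice, 50000 cells per mouse, and the tumours were collected 60 days later. The hosts were p62 KO in 6 cases and wild type in the other 6, and each tumour came from its own mouse and was hybridised to 1 array. The protein p62, encoded by Sqstm1, is an autophagy receptor and signalling adaptor. All 12 tumours grew from the same line, for which the labels name no loss of p62, so that the genotype is that of the host cells within a tumour, and the labels do not give the knockout allele. The comparison asks whether the absence of p62 from the host changed the proliferation programme in the RNA of the whole tumour.

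Dividing cells copy their DNA once and then separate the copies. Before S phase, Cdc6 and Cdt1 load the ring-shaped Mcm2 to Mcm7 helicase onto replication origins, and Cdc45 with the GINS complex turns it on. D-type cyclins with Cdk4 and E-type cyclins with Cdk2 release E2F factors, which switch on the replication genes. Later, Cdk1 with A- and B-type cyclins, the Polo and Aurora kinases and the spindle apparatus carry the cell through mitosis. In a tumour the RNA of many replication and mitotic genes can follow the share of cycling cells, whether carcinoma, stromal or immune. The same need not hold for every member. In whole-tumour RNA, fewer cycling cells and less RNA per cycling cell cannot be told apart.

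Replication and mitotic genes are known to be driven in part by different promoter elements, E2F sites for the replication genes and the cell cycle genes homology region (CHR), often beside CCAAT boxes, for the mitotic genes. Promoters from RefSeq (GRCm38.p6), 250 bases before to 30 after the annotated start, were matched by symbol for 38 of the 50 genes and searched on both strands. The E2F words were TTCCCGC together with TTGGCGC as well as TTCGCGC along with TTGCCGC. The CHR words were TTTGAA together with TTCGAA. The CCAAT box was searched by its own letters. Words on opposite strands can overlap, as TTCGCGC and TTGGCGC do in the Mcm5 promoter. An E2F word was present in 9 of 13 promoters of 12 replication genes (69.2%) and in 3 of 19 promoters of mitotic genes (15.8%), against 8.9% of all 32841 promoters searched. A CHR word was present in 3 of the 13 replication promoters (23.1%) and in 12 of the 19 mitotic promoters (63.2%), against 18.4% of all promoters. CCAAT was found in 76.9% of the replication promoters and 84.2% of the mitotic ones, against 36.1% of all. A match describes the letters only. Promoters are printed here for Rrm1 and Ttk, the replication and the mitotic gene with the widest range over the tumours, for Mcm5 and Bub1b as further genes of each kind, and for Cdk1, whose window holds both E2F and CHR words. The windows are chr8:75109259-75109538 on the plus strand for Mcm5, chr7:102441445-102441724 on the plus strand for Rrm1, chr10:69352883-69353162 on the minus strand for Cdk1, chr9:83834439-83834718 on the plus strand for Ttk and chr2:118597961-118598240 on the plus strand for Bub1b. Capitals mark the E2F, CHR and CCAAT words, read 5′ to 3′ on the gene's strand.
Mcm5: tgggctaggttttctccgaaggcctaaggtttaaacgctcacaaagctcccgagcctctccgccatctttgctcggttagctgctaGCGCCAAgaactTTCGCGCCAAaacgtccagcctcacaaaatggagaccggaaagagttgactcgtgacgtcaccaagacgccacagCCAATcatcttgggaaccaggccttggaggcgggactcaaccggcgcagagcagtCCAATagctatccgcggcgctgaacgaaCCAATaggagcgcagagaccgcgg
Rrm1: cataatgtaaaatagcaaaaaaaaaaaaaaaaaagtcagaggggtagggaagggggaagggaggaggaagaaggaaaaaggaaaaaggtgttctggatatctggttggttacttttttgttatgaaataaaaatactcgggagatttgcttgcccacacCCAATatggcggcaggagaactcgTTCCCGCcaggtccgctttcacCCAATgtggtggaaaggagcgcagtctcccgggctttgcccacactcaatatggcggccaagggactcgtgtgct
Cdk1: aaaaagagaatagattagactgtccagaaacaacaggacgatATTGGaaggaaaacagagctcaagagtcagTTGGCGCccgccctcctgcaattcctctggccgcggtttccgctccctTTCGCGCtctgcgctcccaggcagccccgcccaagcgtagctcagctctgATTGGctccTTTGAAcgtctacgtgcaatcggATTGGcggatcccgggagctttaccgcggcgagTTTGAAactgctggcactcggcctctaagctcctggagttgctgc
Ttk: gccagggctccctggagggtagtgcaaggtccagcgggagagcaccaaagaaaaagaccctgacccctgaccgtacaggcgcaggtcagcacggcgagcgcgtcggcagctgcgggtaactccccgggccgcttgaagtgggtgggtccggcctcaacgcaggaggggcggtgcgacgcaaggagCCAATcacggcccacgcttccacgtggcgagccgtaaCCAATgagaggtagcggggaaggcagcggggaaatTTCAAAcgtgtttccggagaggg
Bub1b: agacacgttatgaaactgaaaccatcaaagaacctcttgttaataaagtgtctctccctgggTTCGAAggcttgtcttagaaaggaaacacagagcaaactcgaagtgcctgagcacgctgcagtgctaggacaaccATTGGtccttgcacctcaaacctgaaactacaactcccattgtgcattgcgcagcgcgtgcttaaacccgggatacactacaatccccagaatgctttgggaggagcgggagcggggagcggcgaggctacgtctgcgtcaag

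No cell cycle gene passed the test between hosts. Levels are log2 intensities, 1 value per probe set and tumour. A difference is the mean of p62 KO hosts minus the mean of wild-type hosts, tested with limma over 28192 probe sets with Benjamini-Hochberg adjustment and a threshold of adjusted p under 0.05. The adjusted p of the 48 members lay between 0.994 and 0.999, and 0.00355% of all probe sets passed. At an unadjusted p under 0.05 there were 0 members, against 2.39% of all probe sets. The p62 KO and wild-type groups overlapped in all 48, where 0.145% of all probe sets had groups that did not. All differences lay between -0.35 (Ccnd2) and 0.14 (Cdc6). Of the 95% intervals, 31 lay within 0.5 of 0 on either side, and the outermost bounds were -0.77 (Ttk) and 0.50 (Cdc6).

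Of the 48 members, 36 were lower and 12 higher in tumours of p62 KO hosts, with a median difference of -0.07. Over all probe sets 42.8% were lower and the median difference was 0.02. The members are bright, however, with 41 of 48 among the 7048 brightest probe sets, and among those 68.8% were lower and the median was -0.07. The direction also rested on p62 KO hosts 2 and 3. Without them 5 members were lower and 43 higher, with a median of 0.11, while 54.5% of all probe sets and 31.9% of the 7048 brightest were lower. Their member means, 8.43 and 8.26, were the lowest among p62 KO hosts, so that their omission had to raise the mean difference. Wild-type host 5, at 8.47, was kept. With the 4 arrays of narrowest spread left out (p62 KO hosts 2 and 3, wild-type hosts 2 and 5), 18 members were lower and 30 higher, with a median of 0.04. Of all probe sets 52.1% were then lower. After quantile normalization 31 were lower and 17 higher.

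**Figure D1:**
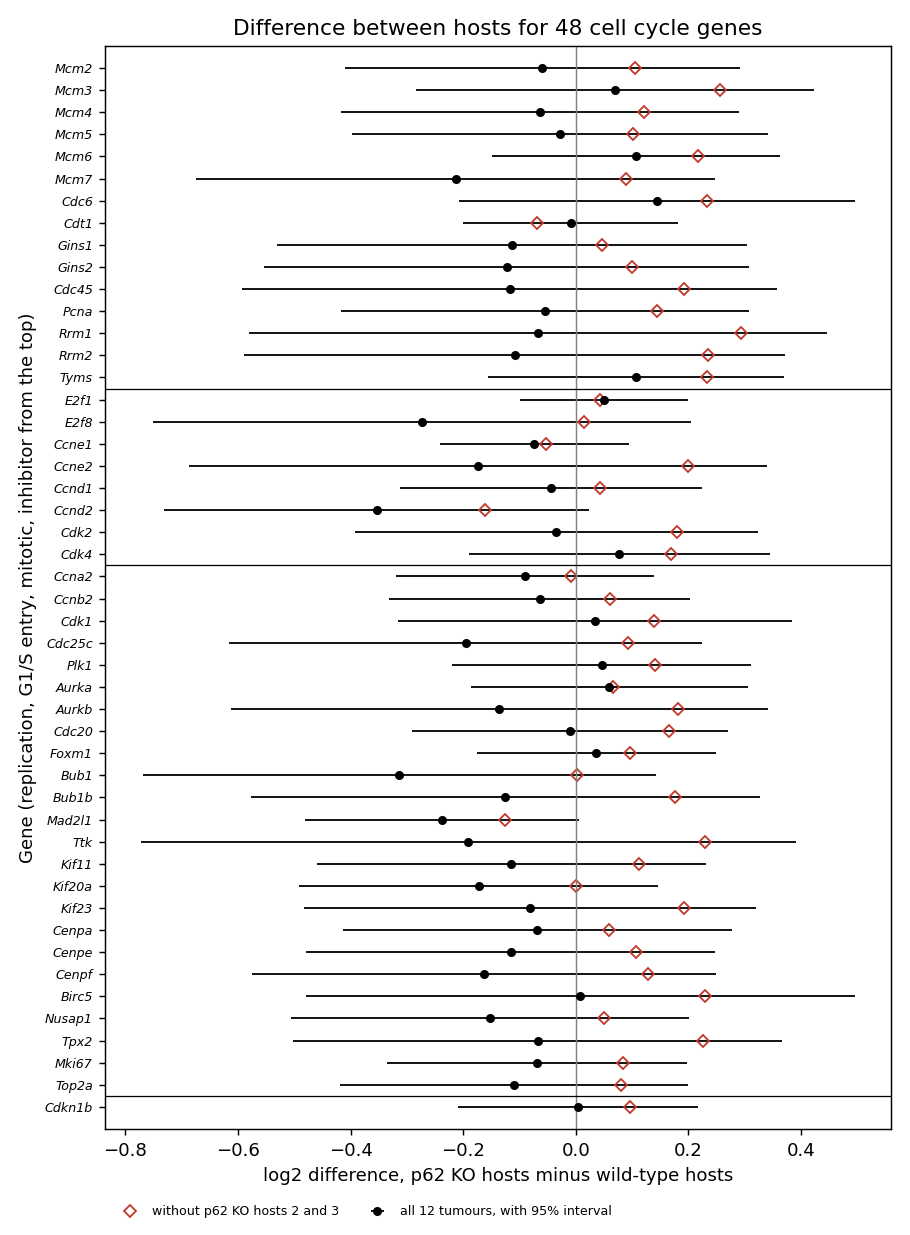
Log2 difference between p62 KO and wild-type hosts for the 48 measured genes, grouped by phase from the top (replication, G1/S entry, mitotic, inhibitor). Black points and bars are the estimates over 12 tumours with 95% intervals, and open red diamonds are the differences without p62 KO hosts 2 and 3, of which 43 of 48 lie above 0. Those 2 hosts had the lowest member means among p62 KO hosts, and the low wild-type host 5 was kept. With the 4 arrays of narrowest spread left out, 30 members were above 0.

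Replication genes as a set averaged 8.46 ± 0.30 in p62 KO hosts and 8.49 ± 0.26 in wild-type hosts (SD, n = 6 each), a difference of -0.04, with 11 of 15 lower. Mitotic genes averaged 9.0 ± 0.34 in p62 KO hosts and 9.10 ± 0.18 in wild-type hosts (SD, n = 6 each), a difference of -0.10, with 19 of 24 lower. Both differences were smaller than the SD of either group, and without p62 KO hosts 2 and 3 both turned, to 0.15 for replication and 0.10 for mitotic genes. With the 4 narrow arrays left out they were 0.05 and 0.02. Replication minus mitotic level was -0.54 ± 0.09 in p62 KO hosts and -0.60 ± 0.11 in wild-type hosts, a difference of 0.06. It ran from -0.64 to -0.40 in p62 KO hosts and from -0.71 to -0.42 in wild-type hosts, so that the ranges overlapped. Since the genes of these sets were chosen with earlier results known, the means have no test.

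**Figure D2:**
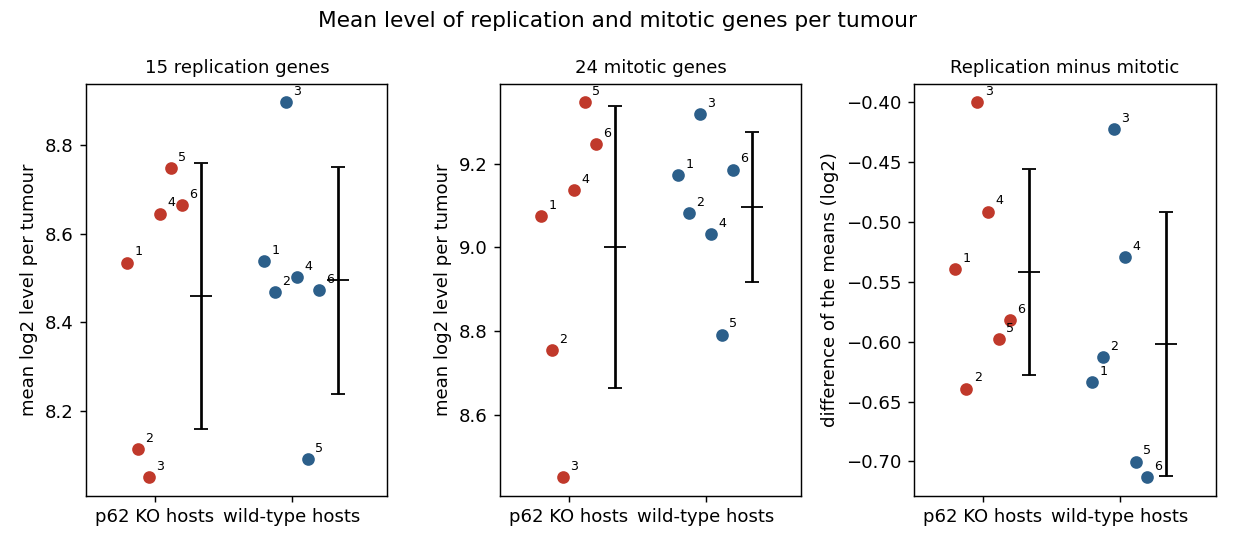
Mean log2 level per tumour of 15 replication genes, of 24 mitotic genes, and of the first minus the second, with the mouse number beside each point. Black marks are group means with SD (n = 6 each). The mitotic mean is lowest in p62 KO hosts 3 and 2, the replication mean in p62 KO host 3, wild-type host 5 and p62 KO host 2, and the contrast in wild-type hosts 6 and 5. The groups overlap in each panel.

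Levels varied from tumour to tumour: the median member ranged over 1.08 across the 12 tumours, against 0.79 for all probe sets and 0.93 for the 7048 brightest. Replication genes were lowest in p62 KO host 3 (8.05), wild-type host 5 (8.09) and p62 KO host 2 (8.11), and highest in wild-type host 3 (8.90) and p62 KO host 5 (8.75). Mitotic genes were lowest in p62 KO host 3 (8.45), p62 KO host 2 (8.75) and wild-type host 5 (8.79), and highest in p62 KO host 5 (9.35) and wild-type host 3 (9.32). The same tumours thus stood at both ends for both phases. Of the 48 members, 28 were lowest in p62 KO host 3, 11 in p62 KO host 2 and 7 in wild-type host 5, together 46, and the exceptions were Cdt1 and E2f1. Those 2 were the dimmest members, with means of 6.70 and 6.69, where the medians of the arrays ran from 6.21 to 6.44. The part of brightness in these exceptions was not tested. Wild-type host 3 was the highest tumour for 18 members and p62 KO host 5 for 14.

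**Figure D3:**
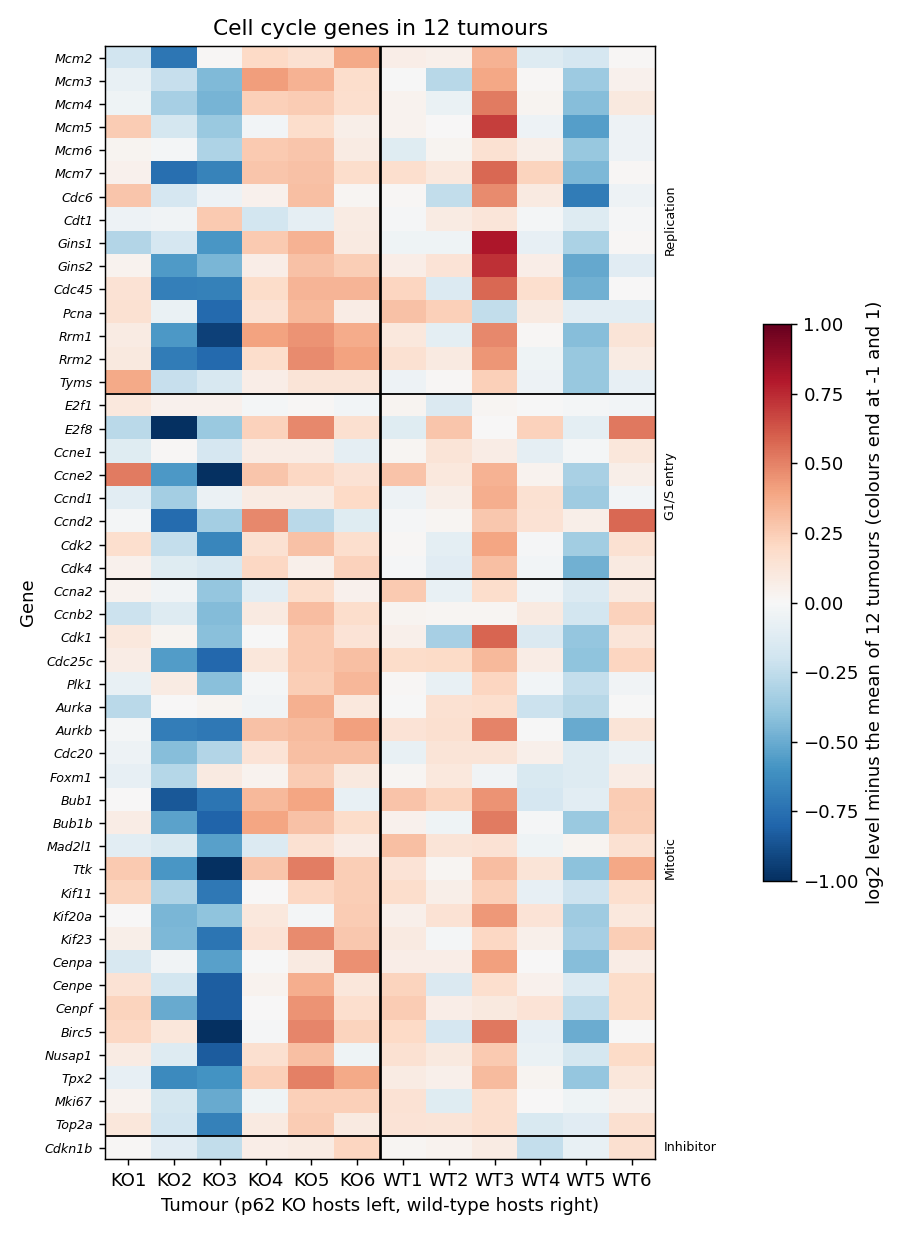
Each row is a gene and each column a tumour, p62 KO hosts left of the line and wild-type hosts right of it, coloured by the log2 level minus that gene's mean over 12 tumours. The columns of p62 KO hosts 2 and 3 and wild-type host 5 are blue in most rows (42, 43 and 46 of 48 below the mean), and those of p62 KO host 5 and wild-type host 3 are red in most.

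The phases differed in how far they moved in single tumours. In p62 KO host 3, replication genes lay 0.43 below and mitotic genes 0.60 below their means over 12 tumours (-0.43 and -0.60). Lowest there were 18 of 24 mitotic genes and 6 of 15 replication genes. Of all probe sets 16.9% were lowest there, and of the 7048 brightest 42.6%, a share that the replication genes did not exceed. Mitotic genes were brighter on average than replication genes, and the part of brightness in this contrast was not tested. In wild-type host 5 the deviations were -0.39 for replication and -0.26 for mitotic genes, and in p62 KO host 2 they were -0.36 and -0.30. In wild-type host 3, on the high side, they were 0.42 and 0.27, whereas p62 KO host 5 had 0.27 and 0.30. After quantile normalization the deviations were smaller in all 5 tumours. They were -0.23 for replication and -0.31 for mitotic genes in p62 KO host 3, -0.22 and -0.077 in p62 KO host 2, and 0.21 and 0.21 in p62 KO host 5. In wild-type host 5 they were -0.32 for replication and -0.17 for mitotic genes, and in wild-type host 3 they were 0.32 and 0.14. With 1 tumour per value, these contrasts have no error.

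The 3 tumours at the low end had the arrays with the narrowest spread of values. The interquartile range of the log2 values was 2.15 in p62 KO host 3, 2.26 in p62 KO host 2, 2.47 in wild-type host 5 and 2.59 in wild-type host 2, against 2.70 to 2.95 in the other 8. The fourth narrow array, that of wild-type host 2, was not low, with deviations of -0.0088 for replication and 0.032 for mitotic genes and 18 of 48 members below their mean. Of the 7048 brightest probe sets, 75.1% were lowest in p62 KO hosts 2 or 3 or wild-type host 5, against 95.8% of the members and 33.7% of all probe sets. After quantile normalization these 3 tumours still had the lowest replication means, 8.24 in p62 KO host 3, 8.25 in p62 KO host 2 and 8.15 in wild-type host 5, against 8.42 or more elsewhere. Mitotic means after that step were lowest in p62 KO host 3 (8.73) and wild-type host 5 (8.88). Among the 8 arrays of wider range, replication genes averaged 8.65 ± 0.09 in p62 KO hosts and 8.60 ± 0.20 in wild-type hosts (SD, n = 4 each), and mitotic genes 9.20 ± 0.12 in p62 KO hosts and 9.18 ± 0.12 in wild-type hosts. Among the 4 narrow arrays the differences were -0.20 for replication and -0.33 for mitotic genes, with n = 2 per host genotype.

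**Figure D4:**
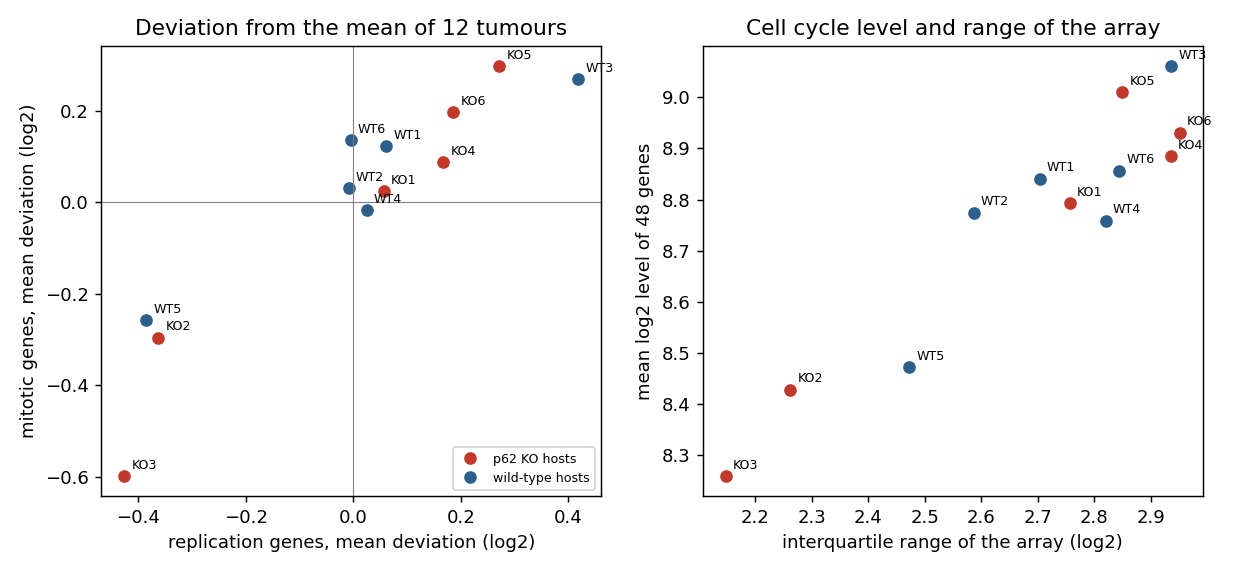
Left, mean deviation of mitotic genes against that of replication genes, 1 point per tumour, each gene measured from its own mean over 12 tumours; p62 KO hosts 2 and 3 and wild-type host 5 lie at lower left. Right, mean log2 level of the 48 genes against the interquartile range of the array; the same 3 tumours have ranges of 2.15 to 2.47 and the lowest levels, 8.26 to 8.47.

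Of the 8 licensing genes 5 were lower and 3 higher, with a mean difference of -0.0067. Mcm2 was at 7.77 at the lowest, 8.57 at the median and 8.87 at the highest in tumours of p62 KO hosts, against 8.32, 8.52 and 8.84 in wild-type hosts, a difference of -0.06 (SE 0.16). Mcm6 was at 9.0, 9.36 and 9.60 in p62 KO hosts, against 8.93, 9.30 and 9.46 in wild-type hosts, a difference of 0.11 (SE 0.12). Mcm7 was at 7.02, 7.88 and 8.07 in p62 KO hosts, against 7.33, 7.91 and 8.35 in wild-type hosts, a difference of -0.21 (SE 0.21). Its medians nearly coincided, and p62 KO hosts 2 and 3, at 7.02 and 7.11, lay below every other tumour. Mcm3, Mcm4 and Mcm5 differed by 0.07, -0.06 and -0.03. The loading factors stood apart from each other in spread: Cdc6 ranged over 1.17 across the tumours, lowest in wild-type host 5 at 6.23, while Cdt1 ranged over 0.44 and was highest, at 6.96, in p62 KO host 3, the tumour where most members were lowest. Mean levels over 12 tumours were 6.93 for Cdc6 and 6.70 for Cdt1. Cdt1 protein is known to be controlled by degradation within the cycle, which RNA does not show.

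The 4 fork genes were all lower in p62 KO hosts, and all 4 were higher there without p62 KO hosts 2 and 3 (median 0.12). With the 4 narrow arrays left out, 2 were lower and 2 higher. Gins1, a subunit of the GINS complex, was at 6.25 at the lowest, 6.79 at the median and 7.18 at the highest in p62 KO hosts, against 6.51, 6.79 and 7.64 in wild-type hosts (difference -0.11, SE 0.19). Gins2 was at 8.14, 8.75 and 9.0 in p62 KO hosts, against 8.19, 8.77 and 9.43 in wild-type hosts (difference -0.12, SE 0.20). Wild-type host 3 gave the highest value of both and the medians were alike. Cdc45, the helicase activator, differed by -0.12 and had 7.51 in p62 KO host 2 and 7.52 in p62 KO host 3 as its lowest values. Pcna, the sliding clamp of the polymerases, was at 11.72, 12.61 and 12.82 in p62 KO hosts, against 12.25, 12.49 and 12.79 in wild-type hosts (difference -0.06, SE 0.17), with p62 KO host 3 below all others. On this probe set the second-lowest level, 12.25, was in wild-type host 3, the tumour where most other replication genes were highest. Pcna had 2 probe sets, and these values are from the brighter one, whose place in the genome was not checked. The mean of both differed by -0.03.

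For nucleotide supply, ribonucleotide reductase and thymidylate synthase took opposite signs. Rrm1, the large subunit of the reductase, ranged over 1.41 and differed by -0.07 (SE 0.24). Rrm2, its small subunit, was at 7.76 at the lowest, 8.68 at the median and 9.01 at the highest in p62 KO hosts, against 8.16, 8.62 and 8.98 in wild-type hosts, a difference of -0.11 (SE 0.22). Tyms was at 8.21, 8.54 and 8.82 in p62 KO hosts, against 8.06, 8.39 and 8.68 in wild-type hosts, a difference of 0.11 (SE 0.12). Without p62 KO hosts 2 and 3 the 3 differences were 0.29, 0.23 and 0.23, none passing. With the 4 narrow arrays left out they were 0.15, 0.13 and 0.17, again none passing. The lowest Rrm1 and Rrm2 levels, 8.73 and 7.76, were both in p62 KO host 3.

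Of the regulators of S phase entry, Ccnd2, a D-type cyclin that partners Cdk4, had the largest difference of any member. It was at 8.87 at the lowest, 9.45 at the median and 10.12 at the highest in p62 KO hosts, against 9.63, 9.75 and 10.22 in wild-type hosts, so that the groups differed by -0.35 (SE 0.18), with an adjusted p of 0.994 by limma. Of the 6 p62 KO tumours 5 lay below every wild-type tumour, and p62 KO host 4, at 10.12, lay above all but wild-type host 6. Its difference was -0.16 without p62 KO hosts 2 and 3. Ccnd1, the other D-type cyclin among the members, was at 9.78, 10.13 and 10.32 in p62 KO hosts, against 9.76, 10.13 and 10.48 in wild-type hosts (difference -0.04, SE 0.12), with equal medians. Cdk4 differed by 0.08 and Cdk2 by -0.03.

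The E2F and cyclin E genes split into pairs of wide and narrow spread. E2f1, an activating E2F, was at 6.66 at the lowest, 6.72 at the median and 6.80 at the highest in p62 KO hosts, against 6.55, 6.68 and 6.72 in wild-type hosts (difference 0.05, SE 0.07). Its range over 12 tumours, 0.25, was the narrowest of the members, and its mean level, 6.69, was the lowest. E2f8, a repressive E2F, was at 8.31, 9.32 and 9.85 in p62 KO hosts, against 9.25, 9.49 and 9.90 in wild-type hosts (difference -0.27, SE 0.22), and ranged over 1.58. Without p62 KO hosts 2 and 3 its difference was 0.01. Ccne1 ranged over 0.29 and Ccne2 over 1.60, and Ccne2 stood at 6.87 in p62 KO host 3 and at 8.48 in p62 KO host 1. The host differences were -0.07 for Ccne1 and -0.17 for Ccne2.

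Among the mitotic cyclins, kinases and their regulators, 5 of 9 were lower. Cdk1, the kinase that starts mitosis, was at 7.53 at the lowest, 8.01 at the median and 8.21 at the highest in p62 KO hosts, against 7.56, 7.90 and 8.53 in wild-type hosts (difference 0.03, SE 0.16). Its cyclin partners Ccna2, at 9.91, 10.30 and 10.47 in p62 KO hosts, against 10.16, 10.32 and 10.56 in wild-type hosts, and Ccnb2 differed by -0.09 and -0.06. Cdc25c, a phosphatase that activates Cdk1, was at 6.89, 7.77 and 7.98 in p62 KO hosts, against 7.27, 7.86 and 8.0 in wild-type hosts (difference -0.20, SE 0.20). The low end in Cdc25c was p62 KO host 3 and the high ends were alike. Plk1, the Polo kinase, was at 7.75, 8.20 and 8.50 in p62 KO hosts, against 7.93, 8.14 and 8.38 in wild-type hosts (difference 0.05, SE 0.12). The Aurora kinases differed by 0.06 (Aurka, of spindle poles) and -0.14 (Aurkb, of the chromosomal passenger complex). Cdc20, which activates the anaphase-promoting complex, differed by -0.01 and Foxm1, a transcription factor of mitotic genes, by 0.04.

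All 4 spindle checkpoint genes were lower in p62 KO hosts and had the largest mean difference of any role, -0.22, at 9.14 ± 0.47 in p62 KO hosts and 9.36 ± 0.21 in wild-type hosts (SD, n = 6 each). Mad2l1, which holds back anaphase until chromosomes are attached, was at 9.91 at the lowest, 10.33 at the median and 10.60 at the highest in p62 KO hosts, against 10.41, 10.58 and 10.75 in wild-type hosts. The difference of -0.24 (SE 0.11) had the smallest unadjusted p of the members, 0.0542, and an adjusted p of 0.994 by limma. Of the p62 KO tumours 4 lay below every wild-type tumour. Bub1, a checkpoint kinase of the kinetochore, was at 8.83, 9.64 and 10.07 in p62 KO hosts, against 9.51, 9.92 and 10.13 in wild-type hosts (difference -0.31, SE 0.21). Without p62 KO hosts 2 and 3 3 of the 4 were higher, Mad2l1 differing by -0.13, Bub1 by 0.0024, Bub1b by 0.18 and Ttk by 0.23. With the 4 narrow arrays left out, 2 were lower and 2 higher. Over all tumours Bub1b differed by -0.12 and Ttk by -0.19, and Ttk had the widest range of the members, 1.80, with 6.96 in p62 KO host 3 against 8.76 in p62 KO host 5. With the interquartile range of the array as a covariate, Mad2l1 (difference -0.20, unadjusted p = 0.0363) and Ccnd2 (-0.29, unadjusted p = 0.0429) were the 2 members under 0.05 unadjusted, where 6.85% of all probe sets were, and neither passed (adjusted p = 0.708 and 0.722 by limma).

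Spindle, motor and kinetochore genes were lower in 8 of 9 cases, and without p62 KO hosts 2 and 3 all 9 were higher. With the 4 narrow arrays left out, 3 were lower and 6 higher. Kif20a, a kinesin of cytokinesis, was at 8.34 at the lowest, 8.79 at the median and 9.05 at the highest in p62 KO hosts, against 8.44, 8.92 and 9.23 in wild-type hosts (difference -0.17, SE 0.15). Nusap1, a spindle-associated protein, was at 7.89, 8.74 and 9.02 in p62 KO hosts, against 8.54, 8.85 and 8.98 in wild-type hosts (difference -0.15, SE 0.16). Without p62 KO hosts 2 and 3 the difference was 0.0007 for Kif20a and 0.05 for Nusap1. The motors Kif11, which pushes spindle poles apart, and Kif23, of the midbody, differed by -0.11 and -0.08, and the spindle factor Tpx2 by -0.07. Of the kinetochore genes, the centromeric histone Cenpa differed by -0.07, the motor Cenpe by -0.12 and Cenpf by -0.16. Birc5, the survivin gene, differed by 0.0074 with 8.27 in p62 KO host 3, the other 5 p62 KO tumours being at 9.25 to 9.75.

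The proliferation marker Mki67 was at 9.01 at the lowest, 9.51 at the median and 9.75 at the highest in p62 KO hosts, against 9.39, 9.54 and 9.68 in wild-type hosts. The difference of -0.07 (SE 0.12) had a 95% interval of -0.34 to 0.20. Top2a, the topoisomerase that untangles sister chromatids, was at 9.89, 10.65 and 10.82 in p62 KO hosts, against 10.41, 10.69 and 10.73 in wild-type hosts (difference -0.11, SE 0.14). In both genes p62 KO host 3 was the lowest and p62 KO host 5 the highest of all 12. The inhibitor Cdkn1b, known as p27, was at 7.60, 7.89 and 8.06 in p62 KO hosts, against 7.61, 7.87 and 8.01 in wild-type hosts (difference 0.0034, SE 0.10). It was lowest in p62 KO host 3 as well, at 7.60, with wild-type host 4 next at 7.61, a tumour with 23 of 48 members below their mean.

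Other genes of the same processes, not among the 50, gave 0 calls in either direction, where 0.00355% of all probe sets passed. For the counts of direction below, 42.8% of all probe sets and 68.8% of the 7048 brightest were lower in p62 KO hosts. Of 36 further replication genes measured, 24 were lower and 12 higher in p62 KO hosts (median -0.06), with Orc2 of the origin recognition complex at -0.35 (SE 0.20), the clamp loader subunit Rfc4 at -0.34 (SE 0.21) and the polymerase subunit Pold1 at 0.14 (SE 0.09). Of 39 further mitotic genes, 27 were lower and 12 higher (median -0.06), with the kinetochore scaffold Knl1 at -0.35 (SE 0.17), Cep55, of cytokinesis, at -0.27 (SE 0.16) and Ckap2l at -0.11 (SE 0.09). Of 15 inhibitors and checkpoint genes, 11 were lower (median -0.11), with Ccng1, a p53 target, at -0.20, the Cdk1-inhibiting kinase Wee1 at -0.26 and Rbl2, of the retinoblastoma family, at -0.15. Of 13 E2F and DREAM complex genes, 9 were lower (median -0.06), with Lin54 at -0.20, Tfdp2 at -0.22 and E2f5 at -0.16. Without p62 KO hosts 2 and 3 the medians of these 4 lists were 0.13, 0.17, 0.07 and 0.06. With the 4 narrow arrays left out they were 0.04, 0.06, 0.0013 and 0.02.

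Marker genes of other cell types were set beside these levels. Leukocyte markers (18 of 19 measured) averaged 7.20 to 7.43 per tumour in p62 KO hosts and 6.88 to 7.33 in wild-type hosts, with 14 higher and 0 passing. At an unadjusted p under 0.05 there were 4 (Cd79a of B cells, and Ly6g, S100a8 and S100a9 of neutrophils), where 2.39% of all probe sets were, with differences of 0.63, 0.44, 0.43 and 0.58. Omitting the 4 narrow arrays gave 0.57, 0.15, 0.23 and 0.49. Cd79a and Ly6g were dim, at 4.24 to 5.24 and 4.10 to 5.40, where the lower quartiles of the arrays ran from 4.85 to 5.36. Ms4a1, also of B cells, and Csf3r, also of neutrophils, differed by 0.11 each. Fibroblast markers (12) averaged 8.89 to 9.47 in p62 KO hosts and 9.14 to 9.48 in wild-type hosts. Endothelial markers (10) averaged 7.13 to 7.83 in p62 KO hosts and 7.17 to 7.65 in wild-type hosts. Epithelial markers (10) averaged 5.83 to 6.30 in p62 KO hosts and 5.77 to 6.09 in wild-type hosts. The tumour of p62 KO host 3, lowest in most cell cycle genes, had the lowest fibroblast and endothelial and the highest epithelial mean, 8.89, 7.13 and 6.30. Wild-type host 5, also at the low end, had 9.21, 7.61 and 6.09, and p62 KO host 2 had 9.29, 7.55 and 6.10. The 4 narrow arrays had the highest epithelial means, 6.09 to 6.30, also that of wild-type host 2, which was not low in cell cycle genes. The part of array spread in the marker means was not tested. The part of cell makeup in the cell cycle levels was not tested. As a check of the tissue, the epithelial keratin Krt8 lay between 7.79 and 8.65 in p62 KO hosts and between 7.76 and 8.30 in wild-type hosts. Epcam, another epithelial gene, lay between 4.32 and 5.16 in p62 KO hosts and between 4.38 and 5.05 in wild-type hosts, below the 0.25 quantile of its own array in all 12. Pbsn, a gene of the differentiated prostate gland, lay between 2.86 and 3.18 in p62 KO hosts and between 2.81 and 3.09 in wild-type hosts, also below that quantile in all 12. It was 1 of 8 gland secretion markers measured, whose mean was highest in wild-type host 4, at 4.37. Sbp and Spink1 of that list stood at 6.05 and 5.82 in wild-type host 4, against medians of 3.49 and 3.88 in p62 KO hosts. Both were above the lower quartile of that array, 4.93. No other marker of the list was highest in that tumour.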

How the data were processed

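RNA of 12 tumours was measured on single-colour arrays, 1 per tumour. Deposited levels are RMA values on a log2 scale, per the submitters' processing notes, which give no version; amplification used the Ovation Pico WTA kit, per the labels. Of 34760 rows, 6568 that the platform annotation links to no gene and that precede all others by identifier were left out. Of the remaining 28192 probe sets, 21640 have 1 gene symbol. The host test was two-sided in limma 3.58.1 (lmFit, then eBayes) under R 4.3.3 without covariates, adjusted by Benjamini-Hochberg over all 28192. The procedure was tested on simulated data with independent noise per probe set, which did not hold the differences in spread between these arrays. The planted changes were all larger than the difference of any member. Means over members have no test. The 7048 brightest probe sets are those by mean level over 12 tumours. The members, the phases, the other gene lists, the promoter words and the alternatives, including those on p62 KO hosts 2 and 3, were chosen with earlier results of these data known. Full values are given for 13 preset genes, 11 of them measured, and for the 2 members of each role with the smallest unadjusted p, and for 3 genes per further list. The promoters shown were chosen after values were seen. Detection calls and batch labels were not used here.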

Additional observations from a re-analysis of the deposited data

Results flagged for a closer look

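Of 102 groups of 6 tumours examined (the 48 members and 3 phase means in each host), 6 held a tumour far from the other 5, and chance gives about 1 in 20. Among tumours of p62 KO hosts, p62 KO host 3 lay low in Pcna, at 11.72 against 12.43 to 12.82 in the other 5, and in Birc5, at 8.27 against 9.25 to 9.75. The Pcna values are from the brighter of its 2 probe sets. Among tumours of wild-type hosts, wild-type host 3 lay high in Gins1, at 7.64 against 6.51 to 6.84. Wild-type host 5 lay low in Cdc25c, at 7.27 against 7.75 to 8.0, and in Cenpf, at 8.97 against 9.29 to 9.48. Wild-type host 2 lay low in E2f1, at 6.55 against 6.66 to 6.72.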

How the results depend on the processing

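No member passed the threshold in any alternative tried, and the smallest adjusted p of a member was 0.11, within the 4 arrays of narrow range. Which side of 0 a member lay on depended on the setting. The number of members lower in tumours of p62 KO hosts was 36 over 12 tumours, 8 with array weights, 5 without p62 KO hosts 2 and 3, 18 without the 4 arrays of narrow range, and 17 to 40 with single tumours left out. The lowest of these, 17, was that without p62 KO host 3. The mean difference was -0.0354 for replication and -0.0956 for mitotic members over 12 tumours. Both turned without p62 KO hosts 2 and 3 (0.15 and 0.10), with array weights (0.11 and 0.064), without the 4 narrow arrays (0.046 and 0.024) and without p62 KO host 3 (0.046 and 0.014). The replication mean alone turned with the interquartile range as a covariate (0.034), without p62 KO host 2 (0.034) and without wild-type host 3 (0.045). Within the narrow arrays they were -0.20 and -0.33. The host difference in replication minus mitotic level stayed between 0.02 and 0.14. The mouse number as a replicate block left the differences as they were and called 0 members (smallest adjusted p = 0.999). The deviations of same-numbered tumours correlated at 0.14 to 0.37 in 4 pairs and at -0.55 and -0.54 in the other two, so that the numbers were not taken as pairs. The filter on dim probe sets and eBayes with trend and robust turned no member, and testing all rows of the table called 0.

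In each group below, the values are log2 differences, p62 KO hosts minus wild-type hosts, of the members that changed sign, and 0 of them passed the threshold. A common median per array turned Cdk1 at -0.00090, Birc5 at -0.027 and Cdkn1b at -0.031. Quantile normalization turned Mcm4 at 0.0050, Rrm1 at 0.019, Ccnd1 at 0.0055, Cdc20 at 0.043 and Tpx2 at 0.0016. The mean of all probe sets turned Cdkn1b at -0.013. The interquartile range as a covariate turned Mcm4 at 0.012, Mcm5 at 0.031, Rrm1 at 0.056, Rrm2 at 0.0019, Cdk2 at 0.043, Cdc20 at 0.042, Kif23 at 0.0090 and Tpx2 at 0.030. Array weights turned 28 members, Mcm2 at 0.090, Mcm4 at 0.085, Mcm5 at 0.069, Mcm7 at 0.016, Gins1 at 0.068, Gins2 at 0.063, Cdc45 at 0.097, Pcna at 0.075, Rrm1 at 0.22, Rrm2 at 0.17, Ccne2 at 0.097, Ccnd1 at 0.019, Cdk2 at 0.14, Ccnb2 at 0.038, Cdc25c at 0.021, Aurkb at 0.12, Cdc20 at 0.16, Bub1b at 0.13, Ttk at 0.14, Kif11 at 0.062, Kif23 at 0.13, Cenpa at 0.024, Cenpe at 0.044, Cenpf at 0.042, Nusap1 at 0.023, Tpx2 at 0.17, Mki67 at 0.047 and Top2a at 0.059. The omission of p62 KO hosts 2 and 3 turned 31, Mcm2 at 0.10, Mcm4 at 0.12, Mcm5 at 0.10, Mcm7 at 0.089, Gins1 at 0.046, Gins2 at 0.10, Cdc45 at 0.19, Pcna at 0.14, Rrm1 at 0.29, Rrm2 at 0.23, E2f8 at 0.014, Ccne2 at 0.20, Ccnd1 at 0.042, Cdk2 at 0.18, Ccnb2 at 0.060, Cdc25c at 0.093, Aurkb at 0.18, Cdc20 at 0.17, Bub1 at 0.0024, Bub1b at 0.18, Ttk at 0.23, Kif11 at 0.11, Kif20a at 0.00070, Kif23 at 0.19, Cenpa at 0.058, Cenpe at 0.11, Cenpf at 0.13, Nusap1 at 0.051, Tpx2 at 0.23, Mki67 at 0.084 and Top2a at 0.081. The omission of the 4 arrays of narrow range turned 20, Mcm2 at 0.060, Cdc45 at 0.0090, Pcna at 0.16, Rrm1 at 0.15, Rrm2 at 0.13, Ccne2 at 0.10, Cdk2 at 0.060, Ccnb2 at 0.0048, Cdk1 at -0.033, Aurkb at 0.062, Cdc20 at 0.16, Bub1b at 0.041, Ttk at 0.083, Kif11 at 0.047, Kif23 at 0.084, Cenpe at 0.0085, Cenpf at 0.040, Tpx2 at 0.12, Mki67 at 0.025 and Top2a at 0.055. Within those 4 arrays 7 turned, Mcm3 at -0.013, Cdt1 at 0.14, Tyms at -0.013, Plk1 at -0.0094, Foxm1 at -0.089, Birc5 at -0.11 and Cdkn1b at -0.16. With each tumour left out in turn, 32 of 48 members lay on both sides of 0, with the ranges Mcm2 -0.14 to 0.079, Mcm3 -0.0074 to 0.16, Mcm4 -0.16 to 0.034, Mcm5 -0.14 to 0.11, Cdt1 -0.061 to 0.027, Gins1 -0.19 to 0.037, Gins2 -0.24 to 0.011, Cdc45 -0.23 to 0.0076, Pcna -0.12 to 0.096, Rrm1 -0.16 to 0.11, Rrm2 -0.21 to 0.036, Ccne2 -0.29 to 0.028, Ccnd1 -0.12 to 0.023, Cdk2 -0.11 to 0.093, Cdk4 -0.010 to 0.15, Ccnb2 -0.13 to 0.015, Cdk1 -0.041 to 0.15, Plk1 -0.015 to 0.13, Aurka -0.0046 to 0.12, Cdc20 -0.072 to 0.073, Foxm1 -0.012 to 0.098, Bub1b -0.22 to 0.023, Ttk -0.31 to 0.047, Kif11 -0.18 to 0.018, Kif23 -0.18 to 0.056, Cenpa -0.17 to 0.033, Cenpe -0.20 to 0.037, Birc5 -0.090 to 0.21, Tpx2 -0.17 to 0.054, Mki67 -0.12 to 0.026, Top2a -0.17 to 0.015 and Cdkn1b -0.044 to 0.054.

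Signal over background was not analysed here. The number of arrays limits the precision, and the standard errors of the members' differences ran from 0.07 to 0.27.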
